A study of Mus musculus with 4 samples.

Results

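Meis binding was examined over the stretch of chromosome 2 that flanks the HoxD complex on the side of Hoxd13. It runs from 73600000 to 74512986 in mm9, through the gene desert between Atp5g3 and Lnp, past Lnp and Evx2 and over Hoxd13, up to the start of Hoxd12. A peak belonged to the landscape when its summit, the base of highest signal, lay between these limits. The landscape held 15 of the 21338 peaks in forelimb (FL) buds and 18 of the 16987 peaks in hindlimb (HL) buds. These lists reach a p of 0.022. The study reported fewer peaks in each limb, under a stricter rule. The list sizes and shares of overlap given here are therefore not the study's own. The buds came from wild-type C57BL/6 mouse embryos at E10.5, at about 36 somites, with around 500 buds of each limb pooled. The precipitation combined an antibody to the isoforms Meis1a, Meis2a and Meis2c with one to every Meis1 isoform, so binding of Meis1 and of Meis2 cannot be told apart. For each limb there was 1 ChIP library with 1 input library and no replicate, so differences between limbs are differences between 2 libraries of pooled whole buds, in which cells of all positions are mixed, and they have no replicate error.

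The HoxD genes are controlled in the limb in successive phases from the flanks of the complex. The flank beyond Hoxd1 serves the early and proximal phase, and the flank beyond Hoxd13 serves the later phase in the future digits, through enhancers spread over the gene desert. Hoxd13 encodes the homeodomain protein at the end of the complex, which patterns the digits and is also expressed early in the posterior bud. Evx2, its neighbour, encodes an even-skipped type homeodomain protein, and Lnp (Lnpk in later annotation) encodes lunapark, a membrane protein of the endoplasmic reticulum. Both neighbours are known to respond to the same digit enhancers as Hoxd13. Meis1 and Meis2 are homeodomain proteins of the TALE class, which mark the proximal limb and bind DNA beside Hox and Pbx proteins.

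The 250 bases before the starts of the 3 genes of the landscape follow, because no peak of either limb had its summit in these windows. They are RefSeq sequences of GRCm38.p6, a later build than mm9, written 5′ to 3′ on the strand of the gene. The windows are chr2:74667975-74668224 on the plus strand for Hoxd13, chr2:74659558-74659807 on the minus strand for Evx2 and chr2:74578949-74579198 on the minus strand for Lnp. Capitals mark exact matches on either strand to a Meis hexamer (TGACAG), to the Hox-Pbx octamers TGATTTAT and TGATTGAT, to a Hox13 heptamer (CAATAAA) or to a T-box hexamer (AGGTGT).
Hoxd13: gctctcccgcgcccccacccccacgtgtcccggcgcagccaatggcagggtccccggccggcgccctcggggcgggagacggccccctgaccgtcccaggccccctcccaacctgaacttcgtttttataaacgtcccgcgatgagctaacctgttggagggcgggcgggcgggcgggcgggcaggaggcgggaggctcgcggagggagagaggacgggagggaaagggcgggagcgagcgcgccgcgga
Evx2: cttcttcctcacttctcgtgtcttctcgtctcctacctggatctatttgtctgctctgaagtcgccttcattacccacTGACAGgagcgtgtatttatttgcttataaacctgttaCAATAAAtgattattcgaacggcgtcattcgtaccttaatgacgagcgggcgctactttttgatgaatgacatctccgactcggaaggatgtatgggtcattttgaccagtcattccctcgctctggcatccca
Lnp: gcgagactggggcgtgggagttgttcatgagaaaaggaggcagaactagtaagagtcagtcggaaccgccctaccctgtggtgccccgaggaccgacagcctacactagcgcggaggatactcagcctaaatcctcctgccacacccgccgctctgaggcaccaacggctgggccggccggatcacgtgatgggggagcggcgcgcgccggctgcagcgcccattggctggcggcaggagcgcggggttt
The Evx2 window held the Meis hexamer 172 bases and the Hox13 heptamer 134 bases before the start, and the other windows held 0 matches to the motifs searched. Among 32851 mouse promoter windows of this length, 15.9% held TGACAG, 4.20% CAATAAA, 11.8% AGGTGT, 0.837% TGATTTAT and 0.670% TGATTGAT. The GC content was 74.4% at Hoxd13, 66.0% at Lnp and 45.6% at Evx2, against a median of 52.4% over all windows. These matches describe letters in the reference and no site of binding.

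The landscape was held by a few high peaks at the same places in both limbs, separated by long stretches with low peaks or none. The highest FL fold enrichment over input, 11.6, was in Hoxd13 itself, and the highest HL fold, 18.6, was in the desert 294 kb before the Hoxd12 start. Apart from these 2 places, the peaks with a q of at most 0.05 in the plot of peak heights stood between 3.67 and 6.58 in FLs and between 4.17 and 5.66 in HLs. Fold, p and q are those that the authors' peak caller gave for each ChIP library over its own input, and they describe single libraries.

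**Figure D1:**
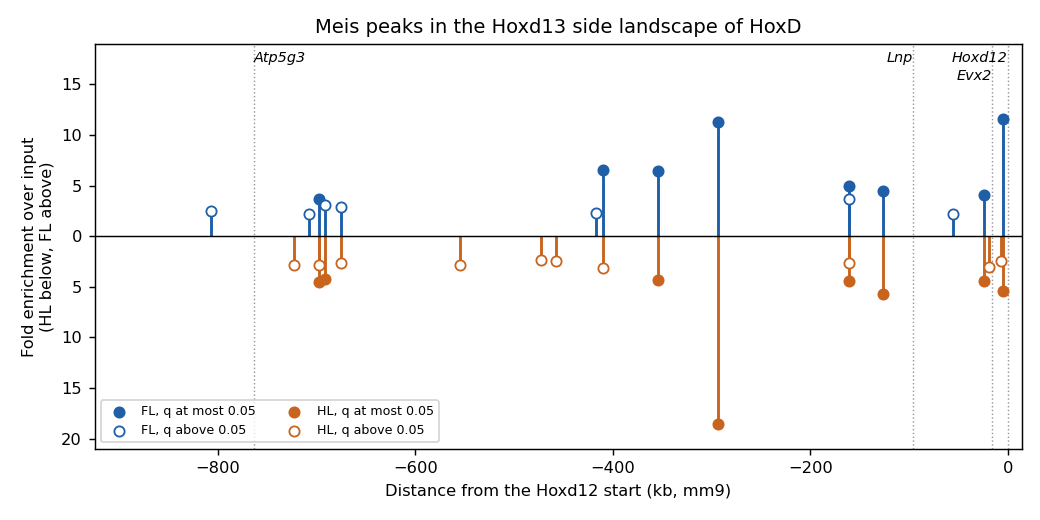
Fold enrichment over input of the 15 FL peaks (blue, upward) and the 18 HL peaks (orange, downward) against the distance of the summit from the Hoxd12 start in kb, with filled points for a q of at most 0.05 and dotted lines at gene starts. The highest points are the FL peak in Hoxd13 (11.6) and the HL peak 294 kb away (18.6), and 8 points are filled in each limb.

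The peak in Hoxd13 extended from 74507825 to 74509469 in FLs, over 1645 bp. It held 2 summits 511 bp apart, with folds of 11.6 at 74508059 and 8.72 at 74508570. The peak caller gave the first summit a p of 2.94e-76 and a q of 9.03e-69, and the second a p of 3.65e-63. By its p it ranked 2 among all 21338 FL peaks, by its length 3, and by its fold 83. The HL peak, from 74507858 to 74509410, lay wholly within it and was, with 1553 bp, the longest of all 16987 HL peaks. Its 6 summits spanned 1177 bp and had folds of 4.59, 5.45, 5.32, 2.14, 3.50 and 4.27 in order of position, and 5 of them had a q of at most 0.05. No HL peak had more than 6 summits, and 3 HL peaks had that number. The HL peak ranked 164 by p (2.94e-17, q = 4.3e-12) and 572 by fold.
The highest FL fold in Hoxd13 was thus 2.14 times the highest HL fold, a log2 ratio of 1.09. Of the 4813 FL peaks that overlapped an HL peak, 279 (5.80%) had a ratio at least as large. The −log10 p was 75.5 in FLs and 16.5 in HLs, a ratio of 4.57, which was not set against that of the other pairs. The first summits of the limbs were 22 bp apart, where the folds were 11.6 in FLs and 4.59 in HLs, and the second FL summit was 133 bp from the third HL summit, where they were 8.72 and 5.32. All HL folds in the peak were below both FL folds, and no replicate was at hand to set a spread against this difference.

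The peak lay over the second exon of Hoxd13 and not at its start. Peaks could be placed in gene models only by distance, since the annotation was of GRCm38. Distances were taken from the Evx2 start, at 74497614 in mm9. The distance from Evx2 to Lnp was 80609 bp in both builds, whereas that from Evx2 to Hoxd12 differed by 84 bp, so each place near Hoxd13 was also read from the Hoxd12 start. The first FL summit, 10445 bp from the Evx2 start and 4927 bp before the Hoxd12 start, fell in the coding part of exon 2 by either anchor. This exon encodes the homeodomain. The second FL summit fell in the non-coding part of that exon, its 3′ UTR, by either anchor. Of the 6 HL summits, the first fell in the coding part and the last 4 in the 3′ UTR. The second HL summit, at 74508191, was in the coding part by the Evx2 anchor and in the 3′ UTR by the Hoxd12 anchor. From the Hoxd13 start, the nearest FL summit was 1777 bp downstream by the Evx2 anchor and 1861 bp by the Hoxd12 anchor.
The HLs also had a low peak in exon 1, from 74506325 to 74506428, with a fold of 2.44 and a q of 1. Its summit was 98 or 182 bp downstream of the Hoxd13 start, depending on the anchor. No FL peak overlapped it.

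**Figure D2:**
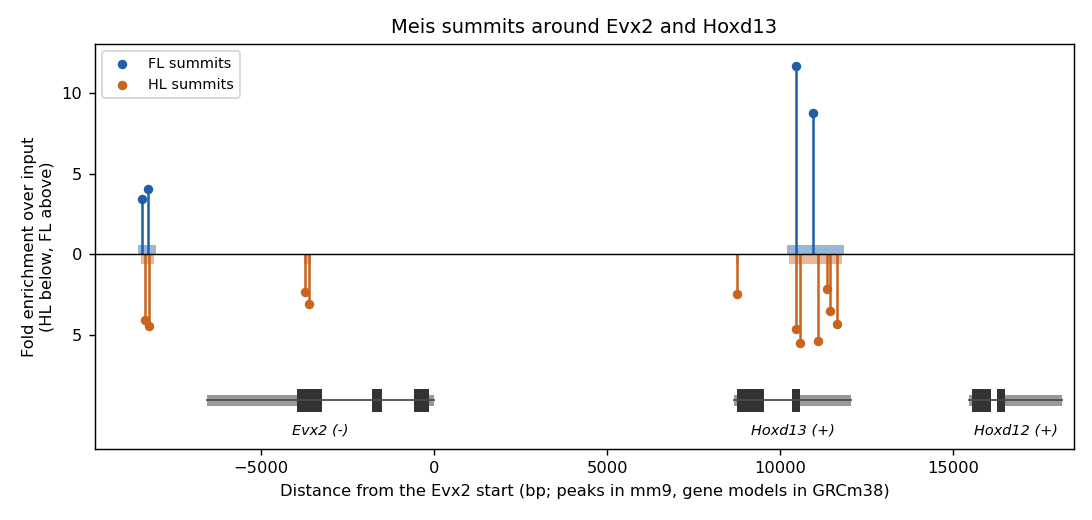
Fold enrichment at each FL summit (blue, upward) and HL summit (orange, downward) against the distance from the Evx2 start in bp, with shaded bars for the extent of each peak and gene models below (thick dark boxes are coding, thin grey boxes non-coding, signs in brackets give the strand). The 2 FL summits of 11.6 and 8.72 and the 6 HL summits of 2.14 to 5.45 stand over exon 2 of Hoxd13, and no summit stands at the Evx2 start.

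Within Evx2 and past its 3′ end, on the side away from Hoxd13, no peak up to Lnp had a fold above 4.39. The nearest FL summit was 8.27 kb from the Evx2 start, beyond the 3′ end. In FLs this peak ran from 74489070 to 74489588 with a fold of 4.03 (q = 0.000121). Over it, the HL peak ran from 74489165 to 74489524 with a fold of 4.39 (q = 0.00312). Each held 2 summits, and the highest ones of the limbs were 43 bp apart. Nearer to the start, the HLs alone had a peak in the coding part of Evx2 exon 3, from 74493851 to 74494051, whose summit was 3.62 kb from the start. Its fold was 3.07 and its q was 1. Between Lnp and Evx2, a single FL peak from 74457522 to 74457640 (fold 2.17, q = 1) had no HL peak over it. The Evx2 promoter window with its TGACAG was thus further than 3 kb from any summit.

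At Lnp, which starts at 74417005, the nearest summits of both limbs were 30.4 kb from the start, within an intron. The FL peak there ran from 74386361 to 74386696 with a fold of 4.50 (q = 0.000245). The HL peak ran from 74386424 to 74386658 and reached 5.66 (q = 3.87e-07). Past the 3′ end of Lnp lay a pair of neighbouring places. At the first, the folds were 4.97 in FLs (74351713 to 74352073, q = 4.23e-05) and 4.44 in HLs (74351762 to 74351932, q = 0.00406), with summits 42 bp apart. At the second, they were 3.65 in FLs (q = 0.107) and 2.66 in HLs (q = 1), with the highest summits 216 bp apart. At these places the ratio of FL to HL fold was 0.795 in the intron, 1.12 at the first place past the end and 1.37 at the second.

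The gene desert from the Atp5g3 start to the 3′ end of Lnp held 10 FL and 13 HL peaks. The starts of Atp5g3, which encodes a subunit of the mitochondrial ATP synthase, and of Lnp are 668 kb apart in mm9. The GRCm38 annotation lists 9 genes between them, of which 6 are lncRNAs, 2 pseudogenes and 1 a snoRNA. The highest peak of the desert was also the one that differed most towards HLs. It extended from 74218686 to 74219485 in FLs, with a fold of 11.3 (q = 8.43e-38), and from 74218725 to 74219416 in HLs, with a fold of 18.6 (q = 1.53e-49). It was the third highest of all HL peaks by fold and ranked 6 by p, whereas in FLs it ranked 96 by fold and 32 by p. Its main summits, at 74219141 in FLs and 74219139 in HLs, were 2 bp apart. Each limb had a lower summit in the same peak, with folds of 3.51 in FLs and 5.22 in HLs and 6 bp between them. The HL fold was 1.65 times the FL fold, and 232 of the 4813 pairs (4.82%) had a ratio at least as far towards HLs. The −log10 p was 42.8 in FLs and 55.7 in HLs.
Further from Hoxd13, a peak 354 kb before the Hoxd12 start had a fold of 6.42 in FLs (74158904 to 74159289, q = 8.53e-08) and 4.36 in HLs (74158915 to 74159242, q = 0.000556). The next one, 409.8 kb before it, had a fold of 6.58 in FLs (74102977 to 74103511, q = 1.77e-08) and 3.18 in HLs (74103077 to 74103334, q = 0.514), although its summits were 2 bp apart. Its FL fold was 2.07 times the HL fold, a ratio reached by 6.63% of all pairs.

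Towards Atp5g3, 3 places within 87.8 kb of its start had peaks in both limbs, all with folds under 5. At the first, in the lncRNA gene Gm31472, the folds were 3.67 in FLs (73815071 to 73815358, q = 0.044) and 4.52 in HLs (73815147 to 73815406, q = 0.0031). At the second they were 3.08 in FLs (73821188 to 73821313, q = 0.595) and 4.17 in HLs (73821155 to 73821453, q = 0.0364). At the third they were 2.86 and 2.65, with summits at the same base and a q of 1 in both limbs. The Atp5g3 start itself had no summit nearer than 43.0 kb in FLs and 41.0 kb in HLs. In FLs, no peak lay between 73837203 and 74095616, a gap of 258 kb. The HL list held 3 peaks in this gap, with folds of 2.79, 2.30 and 2.45 and a q of 1 each. The remaining peaks of the landscape were in 1 limb and had a q of 1. In FLs they began at 73706336, within the gene Atf2 beyond Atp5g3 (fold 2.53), at 73804836 in the lncRNA gene Gm38603 (2.17) and at 74095616 (2.32), and in HLs at 73790321 (2.87) and, in Gm31472, at 73815471 (2.88).

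An HL peak overlapped 11 of the 15 FL peaks of the landscape (73.3%, with a 95% Wilson interval of 48.0 to 89.1%), against 22.6% in the whole FL list. In turn, 11 of the 18 HL peaks were overlapped from FLs (61.1%, 38.6 to 79.7%), against 29.0% in the whole HL list. On the equally long Hoxd1 side these shares were 49.0% in FLs (35.6 to 62.5%) and 51.0% in HLs (37.5 to 64.4%), with intervals that overlap those of the landscape. Intervals cover counting error only. The peaks found in 1 limb alone had folds of 2.17 to 2.53 for 4 FL peaks and 2.30 to 3.07 for 7 HL peaks. Their median folds were 2.25 in FLs and 2.79 in HLs, against 2.70 and 2.66 for such peaks in the whole lists. In FLs, 8 peaks had a q of at most 0.05 (53.3%, 30.1 to 75.2%), against 17.4% of the FL list, and in HLs 8 peaks had one (44.4%, 24.6 to 66.3%), against 10.1% of the HL list. All 8 of these were shared in FLs, against 67.0% of such peaks in the list, and all 8 in HLs, against 89.3%. Of the peaks with a higher q, 3 of 7 FL peaks and 3 of 10 HL peaks did so, against 13.2% and 22.2% of the lists. Among the 11 places with overlapping peaks, the q was at most 0.05 in both limbs at 7 and in neither at 2. It was so in FLs alone at 1 place (409.8 kb before Hoxd12) and in HLs alone at 1 (692 kb before it). The matching shares over all pairs of the lists were not computed, so these counts are not shown to be particular to the landscape.
More than 1 summit was found in 3 FL peaks (20%, against 6.14% of the list) and in 6 HL peaks (33.3%, against 4.15%). On the equally long Hoxd1 side these shares were 12.2% in FLs and 18.4% in HLs. The median length was 292 bp in FLs (interval from order statistics 126 to 519) and 218 bp in HLs (118 to 328). The list medians, 166 and 132 bp, lie inside these intervals, and the shortest listed peaks have 119 and 100 bp. On the Hoxd1 side the median length was 202 bp in FLs and 163 bp in HLs. The median fold was 3.67 in FLs (interval from order statistics 2.53 to 6.42) and 3.13 in HLs (2.66 to 4.44), and 2.78 in both whole lists, which lie inside these intervals. The peaks covered 5932 bp in FLs and 5621 bp in HLs, of which the Hoxd13 peak made up 27.7% and 27.6%.

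**Figure D3:**
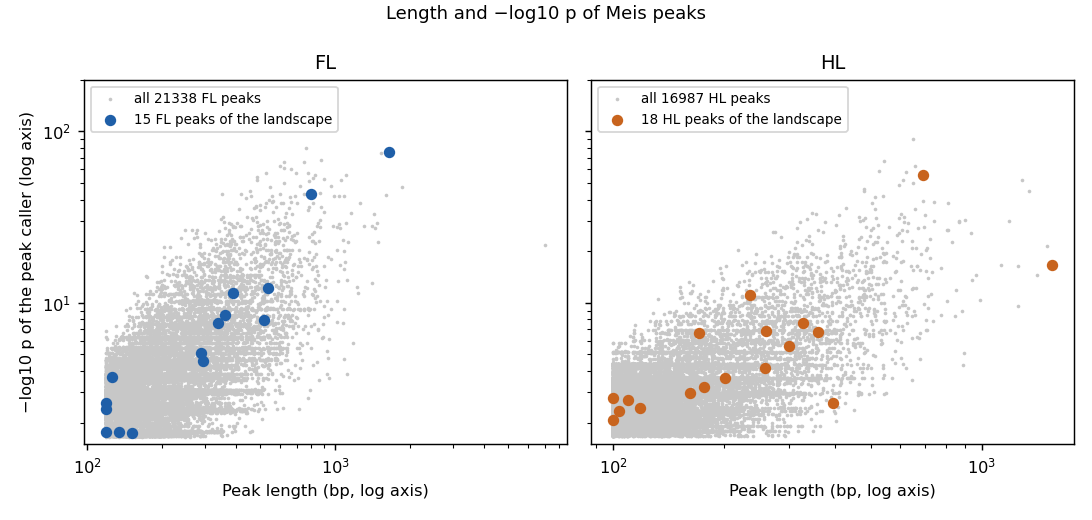
The −log10 p of each peak against its length in bp, both on log axes, for FLs (left) and HLs (right), with the whole lists in grey and the landscape in colour. The point farthest to the right in HLs is the Hoxd13 peak (1553 bp), and in FLs the same peak has a −log10 p of 75.5, with the desert peak 294 kb from Hoxd12 below it at 42.8.

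Over the 11 pairs of overlapping peaks, neither limb had the higher folds throughout. The FL fold was the higher in 6 pairs and the HL fold in 5, while over all pairs it was the higher in 62.1%. The log2 ratio of FL to HL fold ran from −0.72 at the desert peak to 1.09 at Hoxd13. Its median was 0.11 (interval from order statistics −0.44 to 1.05), and the median over all 4813 pairs was 0.17. The FL fold was at least 1.5 times the HL fold in 2 of the 11 pairs, against 22.2% of all pairs, and the HL fold was at least 1.5 times the FL fold in 1, against 7.65%. These shares lie near the background. The summits of a pair were a median of 31 bp apart, against 30 bp over all pairs, and in 9 of 11 pairs at most 100 bp, against 85.5% of all pairs.

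**Figure D4:**
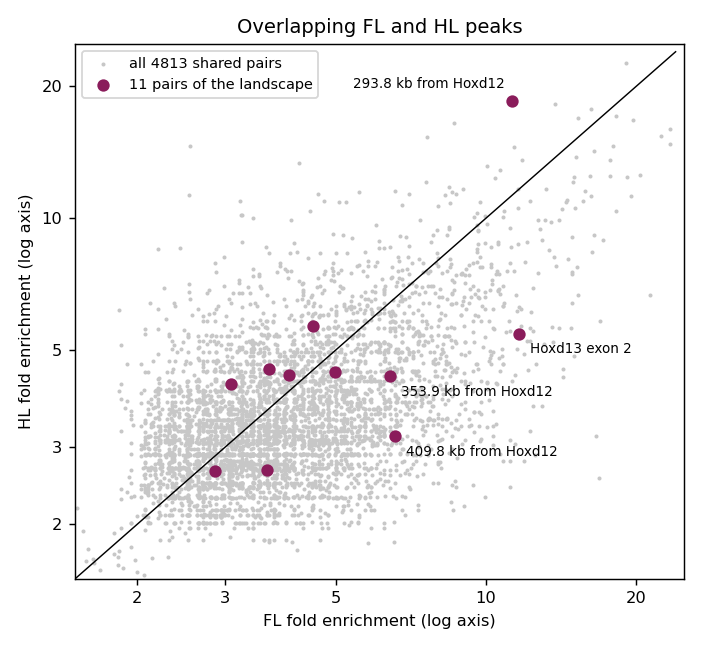
HL fold against FL fold on log axes for the 11 pairs of the landscape (purple) and for all 4813 pairs of overlapping peaks (grey), with the line of equal folds. The Hoxd13 pair (11.6 and 5.45) and the pair 409.8 kb from Hoxd12 (6.58 and 3.18) stand below the line, and the pair 294 kb from Hoxd12 (11.3 and 18.6) stands above it.

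The landscape was denser in peaks than the genome but sparser than the flank on the other side of the Hoxd12 start. It held 16.4 FL peaks per Mb, against 8.11 over the whole list and 9.56 on the rest of chromosome 2, and 19.7 HL peaks per Mb, against 6.46 and 8.51. A stretch of the same length from the Hoxd12 start towards Hoxd1 held 49 peaks in each limb. The sides differed less in peaks with a q of at most 0.05, which were 8 on the Hoxd13 side and 14 on the Hoxd1 side in FLs, and 8 and 10 in HLs. The share of peaks with such a q was 28.6% on the Hoxd1 side in FLs (95% Wilson interval 17.8 to 42.4%) and 20.4% in HLs (11.5 to 33.6%), and these intervals overlap those of the Hoxd13 side. In the 100 kb next to the Hoxd12 start, the Hoxd13 side held 3 FL and 4 HL peaks and the Hoxd1 side, with the rest of the complex, 16 and 19. There the highest FL fold was 11.6 on the Hoxd13 side and 5.84 on the Hoxd1 side. In HLs the sides differed less, with 5.45 on the Hoxd13 side and 4.68 on the Hoxd1 side.

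**Figure D5:**
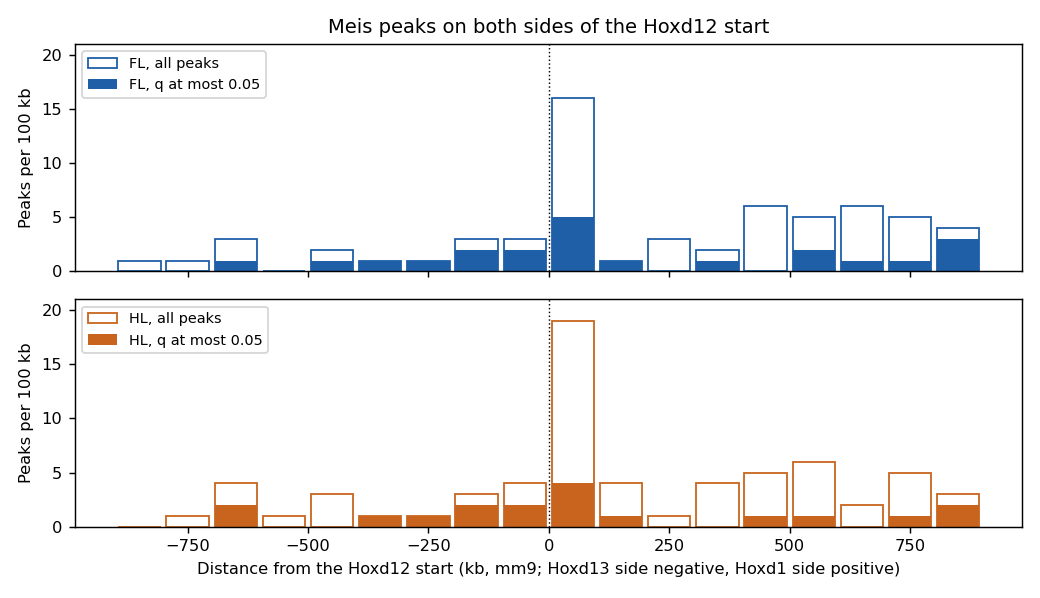
Number of peaks in each full 100 kb from the Hoxd12 start, on the Hoxd13 side (negative distances in kb) and on the Hoxd1 side (positive), for FLs (top) and HLs (bottom), with filled bars for a q of at most 0.05. The tallest bars, 16 in FLs and 19 in HLs, are the first 100 kb of the Hoxd1 side, and no bar of the Hoxd13 side exceeds 4.

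Of 13 related genes, namely Evx1 and Hox genes of groups 9 to 13, only Evx1 and Hoxd12 had a start that could be worked out in mm9. Evx1, the counterpart of Evx2 beside the HoxA complex, starts at 52263492 on chromosome 6. It had 12 FL and 13 HL peaks within 100 kb, with highest folds of 3.89 and 3.98 and 1 peak with a q of at most 0.05 in each limb. In the whole lists, 17.4% of FL peaks and 10.1% of HL peaks had such a q, and the Evx1 counts do not exceed these shares. With so few peaks per gene, the counts here are description and no difference between genes was tested. By their GRCm38 starts, Hoxa13, Hoxa11 and Hoxa10 also lie within 100 kb of Evx1. Evx2 had 19 and 23 peaks within that distance, of which 7 and 6 had such a q, with highest folds of 11.6 and 5.45, and this window takes in Hoxd13 and most of the complex. Hoxd12 had as many in each limb, and its window is nearly the same stretch. Lnp had 6 FL and 7 HL peaks within 100 kb, of which 4 had such a q in each limb, and Mtx2, which bounds the complex on the other side, had 10 and 12, of which 3 had such a q in each limb.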

How the data were processed

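ChIP-seq with anti-Meis antibodies was performed on FL and HL buds, and the peak lists of both ChIP libraries were used. The authors aligned reads to mm9 with BWA and called peaks with MACS2 against the input of the same limb. The deposited fold enrichment is the ratio of ChIP signal to local background at each summit, and the deposited −log10 values of p and q are the authors' too. The deposited score, which follows the authors' −log10 p, was not used further. By their values the lists reach a p of 0.022. The lists hold no read counts, so no depth could be put behind single values. The library read totals that the study's reporting summary gives were not used here, and input libraries were not analysed separately. Rows that shared a start and an end were merged into 1 peak, described by the highest fold, lowest p and lowest q among its summits. These were taken separately and can come from different summits. Peaks sharing at least 1 bp were overlapping, and where several HL peaks overlapped an FL peak, the one of highest fold was its pair. With 1 library per limb no statistical test between limbs was made. Shares have 95% Wilson intervals. Densities used the highest peak end of each chromosome as its length. The summit distances in the study's peak-to-gene list gave the mm9 starts of genes. Gene models came from RefSeq for GRCm38.p6, placed by distance without converting coordinates. The members and gene lists were chosen with earlier results of these data known. Single peaks were named when among the 5 highest folds of the landscape in either limb, when their q was at most 0.05, or when nearest to a named gene's start, and the other peaks named were chosen after their values were seen. The scripts that merge summits and find overlaps were checked on simulated peaks with planted overlaps, all of which were found. Alternatives changed the p or q limit, overlap, counting of summits, limits of the landscape, list length, comparison stretch and measure. Scripts ran in Python 3.11.15 with pandas 2.3.3, numpy 2.4.6 and scipy 1.17.1, and figures were drawn with matplotlib 3.10.9.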

Additional observations from a re-analysis of the deposited data

How the results depend on the processing

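The 12 results on the landscape were recomputed 54 times, and 36 of these values stayed within 1.5 times the value given, for counts and ratios of counts, or within its interval, for shares and medians. With a q of at most 0.05, the landscape held 8 FL and 8 HL peaks. All of these (100% in each limb) overlapped a peak of the other limb, against 67.0% of such peaks in the FL list and 89.3% in the HL list. The density of the landscape peaks was then 6.19 times that of the whole FL list and 13.4 times that of the whole HL list. Without the limit the ratios were 2.02 and 3.05. Their number was 0.571 times that of the Hoxd1 side in FLs and 0.8 times in HLs, against 0.306 and 0.367, and the median HL fold was 4.48. With a p of at most 0.0005, the HL peaks were 10, the shares overlapping were 100% in FLs and 90% in HLs, and the density ratios were 4.25 in FLs and 4.58 in HLs. The share of overlapping peaks in the whole lists was not computed at this limit. Counting every summit gave 28 in HLs. Requiring an overlap of 50% of both peaks lowered the FL share to 46.7%, and an FL list as long as the HL list raised it to 91.7%. For these changes too, the share in the whole lists was not computed. At Hoxd13 the log2 ratio of −log10 p was 2.19, against 1.09 for the fold. The median log2 FL/HL fold of the pairs was −0.12 with either limit on p or q and with summits at most 100 bp apart, against 0.11, and so has no stable sign. The shorter lists follow from the limits themselves, and for the other changes the cause was not tested. No paired analysis was possible because each limb had 1 ChIP library and no test was made. How depth bears on which low peaks were listed was not tested, and an unlisted place is not shown to be unbound.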
